A study of Mus musculus with 12 samples.

Results

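The genes described here are 33 members of the cholesterol and fatty acid synthesis pathways, followed by RNA-seq in stimulated B cells from the spleens of control mice and of mice in which Pdap1 is deleted in the B lineage. They were chosen by name, through the Ensembl identifiers of 33 symbols, out of the 55536 genes of the count table, and the rule uses no measured value. The list holds 7 enzymes of the mevalonate steps, 11 enzymes from squalene onward, 9 fatty acid synthesis genes and 6 genes called regulators here. These 6 are Srebf1 and Srebf2, which encode the sterol regulatory element binding proteins (SREBPs), Insig1, Insig2, Scap and the cholesterol carrier Stard4. The list does not cover every enzyme of these pathways. All 33 were detected in each library, with no count below 30, and all 33 entered every test.

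Cells build cholesterol from acetyl-CoA, first along the mevalonate steps to farnesyl diphosphate, then through squalene and lanosterol to cholesterol, and they build fatty acids from the same acetyl-CoA through malonyl-CoA. Both routes are switched on by SREBPs, transcription factors that stay in the endoplasmic reticulum, bound to their escort protein Scap and to Insig proteins, when sterols are plentiful. When sterols are scarce, Scap carries them to the Golgi, where they are cut and activated. A B cell that enters division after stimulation makes new membrane and draws on both routes.

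Each of 3 control and 3 Pdap1-deficient C57BL/6 mice gave B cells for a pair of cultures, so that 12 libraries fell into 4 groups of 3. Cultures of 48 h received either LPS and IL-4 (LPS-IL-4, used to induce switching to IgG1) or LPS, BAFF and TGFβ (LPS-BAFF-TGFβ, used to induce switching to IgG2b). The mice of both genotypes carried an allele that expresses Cre recombinase in the B lineage; only in Pdap1-deficient mice (Pdap1F/F with Cre, named PDAP1 KO in the labels) did Cre also remove a floxed exon of Pdap1 from both alleles. The labels give no age, and the cells were purified from spleen with anti-CD43 beads rather than sorted, so that cells that had kept Pdap1 or were not B cells may have remained. Levels are given as CPM, read counts scaled to a common library size over the 12 libraries with the trimmed mean of M values (TMM), and differences are log2 fold changes with the standard error (SE) from edgeR's quasi-likelihood test. A gene is said to have passed the test at a Benjamini-Hochberg adjusted p under 0.05 over all genes tested.

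The LPS-IL-4 libraries held 9386667 to 15869143 counts. Of the LPS-BAFF-TGFβ libraries, 5 held 4579793 to 8303482 counts and that of control mouse 1 held 69500640. Pdap1 was between 91.4 and 97.8 CPM in control and between 23.3 and 29.9 CPM in Pdap1-deficient LPS-IL-4 libraries, and between 80.3 and 199 CPM against 23.0 to 26.4 CPM with LPS-BAFF-TGFβ. B cell markers were present throughout (summed level of 6 genes, 2172 to 3460 CPM), although the labels also name the CH12 cell line, and 7 T cell markers summed to no more than 36.8 CPM. The sum of 8 myeloid markers, none of them at 0 in every library, was 9.08 to 19.0 CPM in control and 11.9, 312 and 38.0 CPM in Pdap1-deficient mice 1, 2 and 3 with LPS-IL-4, and 20.7 to 28.4 CPM against 15.3, 549 and 80.1 CPM with LPS-BAFF-TGFβ. The labels give no sex, and Xist, transcribed from the inactive X chromosome, was at 839, 0.989 and 718 CPM in control mice 1, 2 and 3 and at 834, 1.95 and 1.48 CPM in Pdap1-deficient mice 1, 2 and 3 with LPS-IL-4, so that the genotypes were not balanced for it. By its myeloid markers, Pdap1-deficient mouse 2 stood apart in both of its cultures, and results that rest on it are given with and without it.

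Promoter sequence is shown for 6 members whose values are described in the next paragraphs, to set the binding motifs of SREBPs and of their usual partners beside the data. Promoters of 26 of the 33 members were found in RefSeq (GRCm38.p6), and the 250 bases before each listed start were searched on both strands for TCACNCCAC (a sterol regulatory element), CCAAT (bound by NF-Y), GGGCGG (bound by Sp1) and CACGTG (an E-box). Each line gives 150 bases, 5′ to 3′ toward the gene and ending before the first base of the gene in RefSeq or GENCODE, whichever comes first, with matches to the 4 motifs in capitals.
Hmgcs1 (chr13:119690201-119690350, plus strand): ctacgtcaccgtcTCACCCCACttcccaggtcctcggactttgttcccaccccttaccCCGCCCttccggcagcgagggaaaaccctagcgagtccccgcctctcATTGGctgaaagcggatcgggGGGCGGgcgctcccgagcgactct
Lss (chr10:76531438-76531587, plus strand): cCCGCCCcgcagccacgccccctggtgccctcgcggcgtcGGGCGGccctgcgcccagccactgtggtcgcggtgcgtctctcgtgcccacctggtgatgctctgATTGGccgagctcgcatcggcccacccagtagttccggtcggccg
Insig1 (chr5:28071213-28071362, plus strand): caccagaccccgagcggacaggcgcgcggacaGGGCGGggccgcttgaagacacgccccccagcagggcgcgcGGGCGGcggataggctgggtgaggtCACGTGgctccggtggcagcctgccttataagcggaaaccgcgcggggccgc
Scap (chr9:110333138-110333287, plus strand): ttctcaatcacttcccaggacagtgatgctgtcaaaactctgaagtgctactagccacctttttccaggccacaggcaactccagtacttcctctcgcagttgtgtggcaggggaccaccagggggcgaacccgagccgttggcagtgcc
Fasn (chr11:120824548-120824697, minus strand): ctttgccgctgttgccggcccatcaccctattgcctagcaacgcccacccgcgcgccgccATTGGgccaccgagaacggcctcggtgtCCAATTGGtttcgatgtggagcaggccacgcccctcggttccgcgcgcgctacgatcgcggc
Elovl6 (chr3:129532205-129532354, plus strand): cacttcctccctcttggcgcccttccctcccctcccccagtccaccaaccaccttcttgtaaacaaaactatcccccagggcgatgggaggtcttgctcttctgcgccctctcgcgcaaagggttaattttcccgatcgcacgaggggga
TCACNCCAC was found in 1 of the 26 members, Hmgcs1, which is 3.85% of them against 1.22% of the 27025 genes in the table. CCAAT was found in 20 members (76.9%, against 37.5% of all genes), GGGCGG in 21 (80.8%, against 35.4%) and CACGTG in 6 (23.1%, against 6.86%). In Fasn a CCAAT on either strand overlapped, and the GGGCGG and CACGTG counted for Scap lay before a later listed start, outside the window shown. Elovl6 held none of the 4 in the searched window. The shares over all genes were not limited to genes with counts in these libraries, whereas all members had counts. These are matches of letters only, and binding was not measured. Sites that deviate from these letters or lie outside the 250 bases were not searched for, so a promoter without a match may still hold such a site.

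Compared per length, fatty acid genes led the list. In control LPS-IL-4 libraries Scd1, the stearoyl-CoA desaturase that makes oleate, was at 111 ± 2.23 CPM per kilobase of exon (mean ± SD, n = 3), ahead of Acly, which makes cytosolic acetyl-CoA from citrate (94.8 ± 2.48), and of Fasn, the fatty acid synthase (81.8 ± 2.55). The highest sterol enzyme was Hmgcs1, which makes HMG-CoA at the entry to the mevalonate steps (70.5 ± 2.57 CPM per kilobase of exon). It was followed by Cyp51, the lanosterol demethylase (60.7 ± 3.94), whose level differed from that of the desaturase Scd2 (59.7 ± 3.33) by less than the SD of either. Among the regulators, Insig1 (47.6 ± 1.99 CPM per kilobase of exon) stood above its paralog Insig2 (4.66 ± 0.0734), and Srebf2, the SREBP of the sterol genes (27.0 ± 1.11), above Srebf1, which serves mainly fatty acid genes (16.1 ± 1.25). The lowest members were the elongase Elovl6 (3.50 ± 0.213), the farnesyl diphosphate synthase Fdps (2.62 ± 0.314) and the sterol reductase Tm7sf2 (1.68 ± 0.173), all on the same scale. Fdps and Tm7sf2 share sequence or exons with other genes, as described below, so their place in this order is uncertain.

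**Figure D1:**
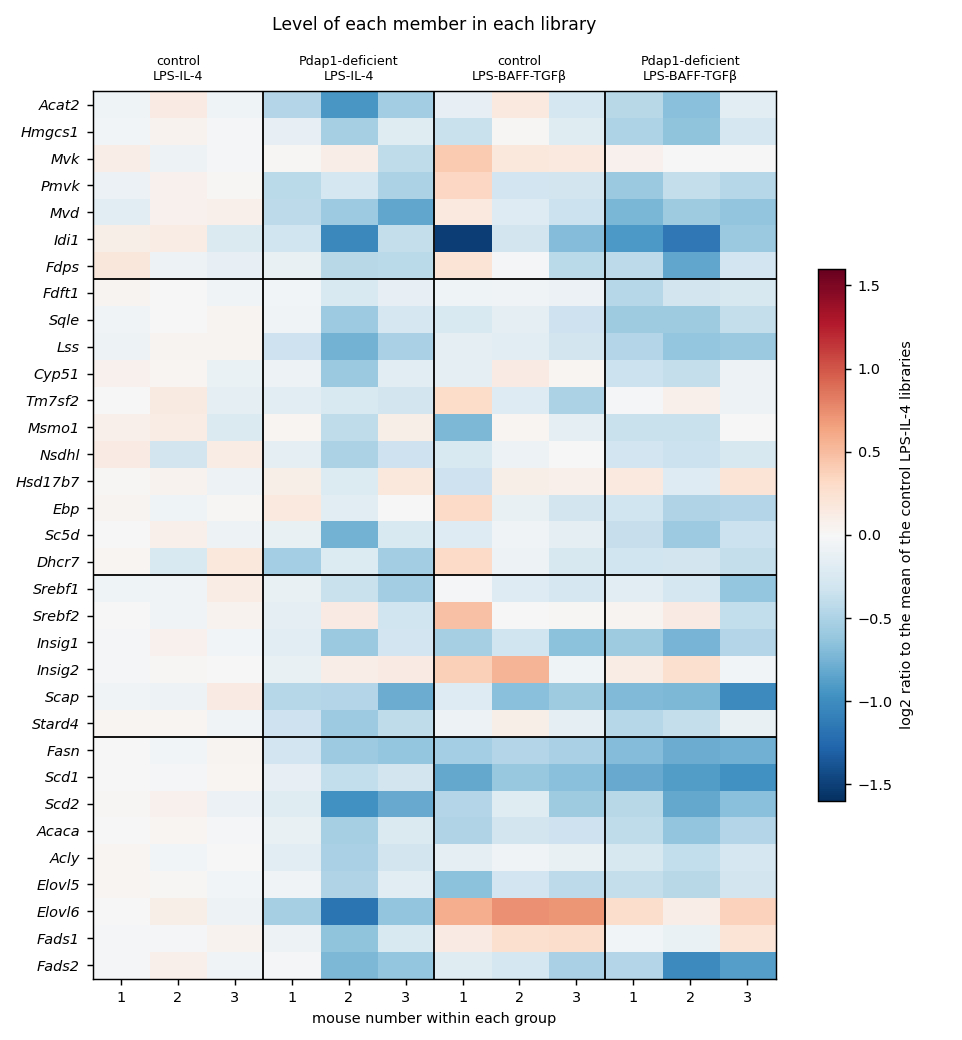
Level of each of the 33 members (rows, in the order mevalonate steps, squalene and later steps, SREBP regulators, fatty acid synthesis) in each of the 12 libraries (columns), as the log2 ratio of CPM to the mean of the 3 control LPS-IL-4 libraries. Blue is lower and red is higher; Pdap1-deficient mouse 2 with LPS-IL-4 is the bluest of its group, with a median member ratio of -0.52, and Elovl6 is red in every LPS-BAFF-TGFβ library.

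With LPS-IL-4, 7 of the 33 lipid synthesis genes were lower in Pdap1-deficient than in control B cells and none was higher. The 7 were at 58.9% to 73.4% of the control level: Acat2 and Mvd of the mevalonate steps, Lss of the later sterol steps, the regulators Scap and Stard4, and Fasn and Elovl6 of fatty acid synthesis. Of all 15074 genes tested, 2.12% passed as lower and 4.92% in either direction. The fitted difference was below 0 for 31 of the 33 members (47.3% of all genes), with a median log2 fold change of -0.33 (0.02 over all genes), and in 21 members every Pdap1-deficient library lay below every control library (16.1% of all genes). In bulk RNA, fewer cells that express a gene and less RNA per cell cannot be told apart.

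Of the mevalonate enzymes, 2 of 7 were lower. Acat2 (ENSMUSG00000023832, chr17:12942890-12960747, minus strand, GRCm38), which joins acetyl-CoA units into acetoacetyl-CoA, was at 77.1, 88.3 and 77.0 CPM in control mice 1, 2 and 3 and at 58.4, 42.5 and 54.9 CPM in Pdap1-deficient mice 1, 2 and 3. The groups did not overlap, and mouse 2 was the lowest of the Pdap1-deficient libraries (log2 fold change -0.65 ± 0.14 (SE), adjusted p = 0.0296). Mvd (ENSMUSG00000006517, chr8:122433601-122443422, minus strand), the decarboxylase that yields isopentenyl diphosphate, was at 38.7, 46.0 and 46.3 CPM in control and 32.6, 29.3 and 24.5 CPM in Pdap1-deficient libraries. Here mouse 3 was the lowest, and again no Pdap1-deficient library reached the control range (log2 fold change -0.61 ± 0.13 (SE), adjusted p = 0.0315). The phosphomevalonate kinase Pmvk, the isomerase Idi1 and Hmgcs1 also showed separate groups without passing the test, at fitted log2 differences of -0.41, -0.55 and -0.28 (adjusted p = 0.0586, 0.136 and 0.204). Mvk, the mevalonate kinase, gave -0.08 (95% interval -0.43 to 0.26) with overlapping groups.

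From squalene onward, 1 of 11 enzymes was lower. Lss (ENSMUSG00000033105, chr10:76531588-76557138, plus strand), which folds oxidized squalene into lanosterol, was at 102, 111 and 111 CPM in control and 85.3, 63.5 and 75.1 CPM in Pdap1-deficient libraries. No library of one genotype entered the range of the other (log2 fold change -0.54 ± 0.13 (SE), adjusted p = 0.0396). The other 10 members of the group had log2 fold changes between -0.44 (Dhcr7, the last reductase of the route, adjusted p = 0.107) and 0.01 (Hsd17b7, the ketosteroid reductase, adjusted p = 0.968). The 95% interval of the log2 fold change was -0.28 to 0.27 for Ebp, the sterol isomerase, and -0.42 to 0.25 for Msmo1, the methyl oxidase.

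Among the regulators, 2 of 6 were lower. Scap (ENSMUSG00000032485, chr9:110333288-110384950, plus strand) was at 93.2, 91.5 and 106 CPM in control and 70.9, 70.0 and 55.9 CPM in Pdap1-deficient libraries. All control values lay above all Pdap1-deficient values, of which that of mouse 3 was the lowest (log2 fold change -0.57 ± 0.12 (SE), adjusted p = 0.0272). Stard4 (ENSMUSG00000024378), a carrier of cholesterol between membranes, was at 139, 139 and 131 CPM in control and 108, 91.0 and 103 CPM in Pdap1-deficient libraries. The control libraries were close together, above all 3 Pdap1-deficient ones (log2 fold change -0.45 ± 0.11 (SE), adjusted p = 0.0422). Insig1 and Srebf1 had log2 fold changes of -0.35 and -0.34 without passing the test (adjusted p = 0.126 and 0.141), and Srebf2 and Insig2 -0.11 and 0.03 with overlapping groups.

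Of the fatty acid genes, 2 of 9 were lower, and all 9 had a fitted difference below 0. Fasn (ENSMUSG00000025153, chr11:120805846-120824547, minus strand) was at 892, 870.0 and 925 CPM in control and 727, 597 and 581 CPM in Pdap1-deficient libraries. Mice 2 and 3 were lower than mouse 1, and each was below the control range (log2 fold change -0.50 ± 0.12 (SE), adjusted p = 0.0438); its printed promoter is the one with overlapping CCAAT motifs. Elovl6 (ENSMUSG00000041220, chr3:129532355-129638495, plus strand), which extends palmitate to stearate, was at 22.3, 23.9 and 21.2 CPM in control and 15.6, 10.03 and 14.5 CPM in Pdap1-deficient libraries. The groups were separate and mouse 2 was the lowest library of the 12 for this gene, whose printed promoter held none of the 4 motifs (log2 fold change -0.76 ± 0.18 (SE), adjusted p = 0.0392). Scd2, a stearoyl-CoA desaturase like Scd1, was at 331, 341 and 306 CPM in control and 285, 167 and 186 CPM in Pdap1-deficient libraries. Mouse 1 was closest to the controls and mouse 2 lowest, and Scd2 did not pass (log2 fold change -0.62 ± 0.19 (SE), adjusted p = 0.0914).

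The size of the difference varied between Pdap1-deficient mice. Relative to the control mean, the median member was at a log2 ratio of -0.13 in mouse 1, -0.52 in mouse 2 and -0.32 in mouse 3, with 29, 30 and 29 of 33 members below the control mean. The median fatty acid gene was at -0.13, -0.59 and -0.30, and the median mevalonate enzyme at -0.31, -0.54 and -0.41, in the same order. Mouse 2 was also the library with the highest myeloid marker sum. Without it, 10 members passed as lower, among them all 7 of the full comparison. The share of all genes that passed also rose, to 9.58% from 4.92%, and the median member log2 fold change was -0.23. Plasma cell markers (6 genes) summed to 630.2 to 680.1 CPM in control and 752 to 900.0 CPM in Pdap1-deficient LPS-IL-4 libraries. The markers did not move together: Prdm1 and Irf4 were higher without overlap, and Xbp1, Jchain and Mzb1 overlapped. Sdc1 was lower without overlap, at 6.42 to 9.90 CPM in control against 3.95 to 5.84 CPM. Markers of dividing cells (8 genes) summed to 5218 to 5516 CPM in control and 6031, 4894 and 5819 CPM in Pdap1-deficient mice 1, 2 and 3. Of these, Pcna and Mcm5 were lower without overlap, Mki67 and Tyms were higher without overlap, and Top2a, Ccnb1, Cdk1 and Mcm2 overlapped. Mitochondrially encoded RNA took 1.99 to 2.34% of counts in control against 2.50 to 3.26%. The part of these markers and of this RNA in the result was not tested. Xist was high in mouse 1 and near 0 in mice 2 and 3. With the log2 level of Xist as a term of the fit, an alternative that leaves fewer residual degrees of freedom, 0 members and 177 genes (1.17%) passed. The log2 fold changes of the 7 members were then -0.74 to -0.43 (adjusted p = 0.0861 to 0.123). The count of 7 also rested on each control library. Without control mouse 1, 2 or 3, or without Pdap1-deficient mouse 3, edgeR called 0 members and 69 to 163 genes in all. In these fits the median member log2 fold change was -0.34 to -0.33 (0.01 to 0.02 over all genes). Without Pdap1-deficient mouse 1, edgeR called 12 members, with 11.4% of all genes. The fold changes of the 7 members stayed between -0.91 and -0.36 in all 13 alternatives, among them the Wald test of DESeq2, which called 9 members with all 7 included (8.9% of all genes it gave an adjusted p). At an unadjusted p under 0.05, edgeR had 19 members lower (11.7% of all genes).

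**Figure D2:**
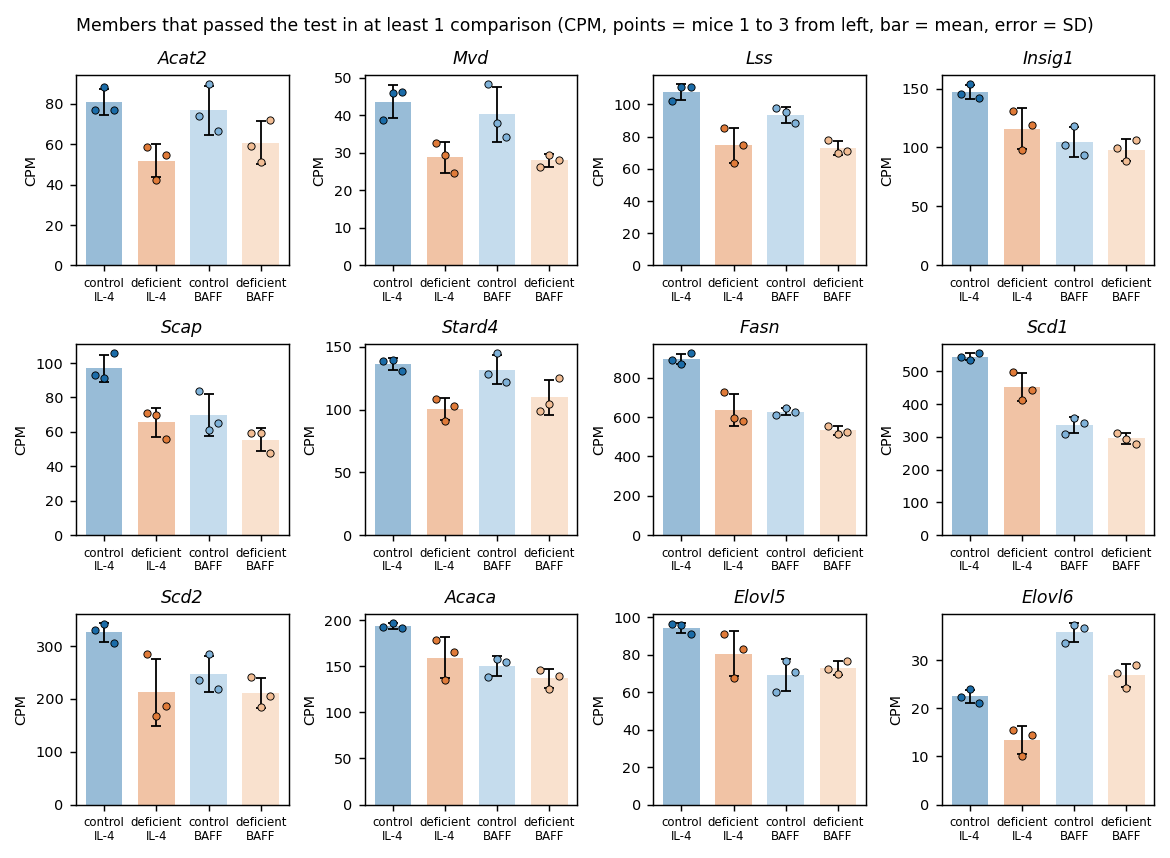
CPM of the 12 members that passed the test in at least 1 comparison, by genotype and stimulation (LPS-IL-4 shortened to IL-4, LPS-BAFF-TGFβ to BAFF); points are mice 1 to 3 from left to right, bars the mean and error bars the SD (n = 3). In the LPS-IL-4 groups of Acat2, Mvd, Lss, Scap, Stard4, Fasn and Elovl6 the Pdap1-deficient points all lie below the control points, and Elovl6 is the gene of the 12 that is higher with LPS-BAFF-TGFβ in both genotypes.

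With LPS-BAFF-TGFβ, no member passed the test between genotypes. edgeR called 0 of 33 members and 65 of 14079 genes (0.462%, of which 0.455% higher and 0.0071% lower), and DESeq2 likewise 0 members. At an unadjusted p under 0.05, 8 members were lower (5.28% of all genes were) and none was higher. The fitted difference was below 0 for 29 of 33 members (49.1% of all genes), with a median log2 fold change of -0.23 (0.01 over all genes), and in 14 members the groups did not overlap, all with the lower values in Pdap1-deficient libraries (9.08% of all genes). Relative to the control mean, the median member had a log2 ratio of -0.19, -0.29 and -0.21 in Pdap1-deficient mice 1, 2 and 3.

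The members with the smallest adjusted p in this comparison were Mvd, Lss and Elovl6. Mvd was at 48.5, 38.0 and 34.3 CPM in control mice 1, 2 and 3 and at 26.3, 29.5 and 28.1 CPM in Pdap1-deficient mice 1, 2 and 3. The groups did not overlap and the highest value was that of the deeply sequenced control mouse 1 (log2 fold change -0.52 ± 0.15 (SE), adjusted p = 0.314). Lss was at 97.6, 95.1 and 88.2 CPM in control and 78.1, 70.0 and 71.2 CPM in Pdap1-deficient libraries, also without overlap (log2 fold change -0.35 ± 0.11 (SE), adjusted p = 0.332). Elovl6 was at 33.5, 37.2 and 36.7 CPM in control and 27.4, 24.2 and 29.0 CPM in Pdap1-deficient libraries. All Pdap1-deficient values lay below the control values, at 75.6% of control in the fit (log2 fold change -0.40 ± 0.13 (SE), adjusted p = 0.345). The other members of the mevalonate group had log2 fold changes between -0.44 (Fdps) and -0.10 (Idi1), and Idi1 spread widest in the controls, at 52.2, 121 and 92.2 CPM. Fasn, which was lower with LPS-IL-4, was at 613, 647 and 624 CPM in control and 555, 516 and 524 CPM in Pdap1-deficient libraries. These groups were separate, but the difference did not pass (log2 fold change -0.23 ± 0.10 (SE), adjusted p = 0.475). Without the library of control mouse 1, without those of control mouse 1 and Pdap1-deficient mouse 2, and in the 13 other alternatives run, the Xist term included, no member passed either.

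**Figure D3:**
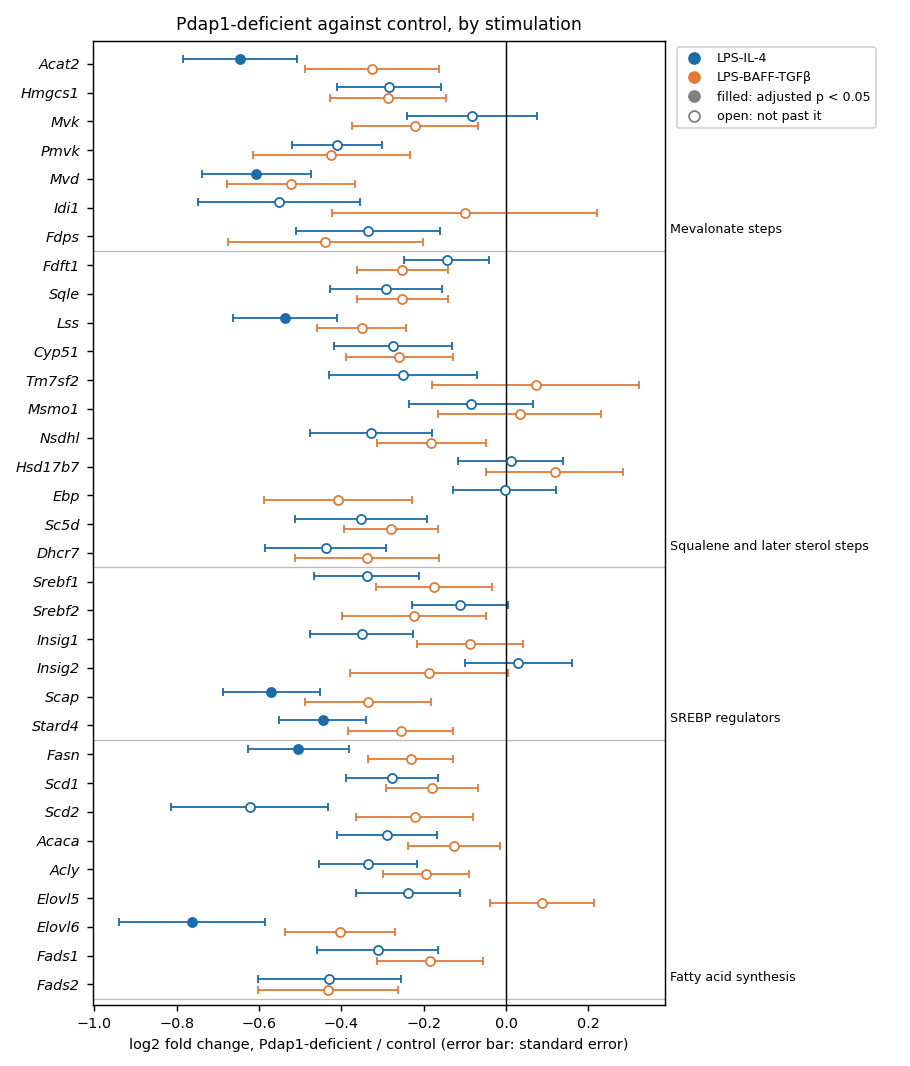
Log2 fold change between Pdap1-deficient and control libraries (x axis, with its standard error) for the 33 members, with LPS-IL-4 in blue and with LPS-BAFF-TGFβ in orange; filled symbols passed the test. Most symbols of both colors lie left of 0, 31 of 33 with LPS-IL-4 and 29 of 33 with LPS-BAFF-TGFβ, and the 7 filled ones are all blue.

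Passing the test in the LPS-IL-4 cultures only did not amount to a tested difference between stimulations. The genotype by stimulation term over the 12 libraries was past the threshold for 0 of 33 members and 0 of 15794 genes in edgeR (0.0%), for 0 members and 6 genes in DESeq2, and for 0 members at an unadjusted p under 0.05 (4.78% of all genes). With the 6 mice as blocks edgeR again called 0 members and 0 genes (1 member at an unadjusted p under 0.05). The 3 members with the smallest unadjusted p were Ebp, Elovl5 and Fasn, all with adjusted p = 0.983. For Ebp the genotype effect in LPS-BAFF-TGFβ minus that in LPS-IL-4 was -0.42 on the log2 scale (95% interval -0.89 to 0.04). Its values with LPS-IL-4 were 27.7, 25.6 and 27.3 CPM in control and 30.03, 23.9 and 27.1 CPM in Pdap1-deficient libraries, and with LPS-BAFF-TGFβ 33.2, 24.7 and 21.9 CPM and 21.6, 19.2 and 19.3 CPM. The genotypes overlapped in the first stimulation and not in the second. For Elovl5, a fatty acid elongase of polyunsaturated chains, the log2 difference was 0.31 (-0.06 to 0.68), and for Fasn 0.26 (-0.05 to 0.56). All 3 intervals include 0, and they come from the fit without the mice as blocks.

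Between stimulations in control mice, the share of members that changed was near that of all genes. Of the 33 members, 8 passed the test in control mice (19.3% of all 14882 genes tested did): 7 were higher with LPS-IL-4 (9.33% of all genes) and 1, Elovl6, was lower (9.99%). By group these were 6 of 9 fatty acid genes, 2 of 6 regulators and 0 of 18 sterol enzymes. The median log2 fold change was 0.36 in the fatty acid genes, 0.10 in the regulators and 0.07 in the sterol enzymes (-0.03 over all genes), and groups did not overlap in 12 members higher and 3 lower with LPS-IL-4 (18.8% and 19.0% of all genes). Whether the groups of members differ from each other was not tested, and the LPS-IL-4 control libraries are the ones already used against the Pdap1-deficient libraries. DESeq2 also called the sterol enzyme Idi1 as higher. The sums of B cell markers (3093 to 3155 CPM with LPS-IL-4 against 2200.4 to 2315 CPM) and of plasma cell markers (630.2 to 680.1 against 471 to 531 CPM) also differed between stimulations in control mice without overlap. So did mitochondrially encoded RNA (1.99 to 2.34% of counts against 2.93 to 3.30%). Irf4 of the plasma cell list went the other way (287 to 309 against 343 to 393 CPM). Mzb1 of that list overlapped, as did Cd79a and Pax5 of the B cell list. The sums of dividing cell markers overlapped, at 5218 to 5516 CPM with LPS-IL-4 and 5393, 6679 and 6830 CPM with LPS-BAFF-TGFβ in control mice 1, 2 and 3. The part of these markers and of this RNA in the result was not tested. Since each mouse gave a culture to each stimulation, the mouse also served as a block, with cultures paired by their number. With it, 4 of the 8 still passed (Fasn, Scd1, Insig1 and Elovl6, with 13.4% of all genes). In that fit Elovl5, Acaca, Scap and Scd2 had adjusted p = 0.0534, 0.0756, 0.0646 and 0.0607. Control cultures paired this way did not always correlate best, as given with the processing.

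Scd1 (ENSMUSG00000037071, chr19:44394455-44407879, minus strand) was at 545, 534 and 556 CPM with LPS-IL-4 and 308, 357 and 343 CPM with LPS-BAFF-TGFβ in control mice 1, 2 and 3. The stimulations did not overlap, and the gap was wider than the spread within either (log2 fold change 0.70 ± 0.09 (SE), adjusted p = 0.00118). Fasn, with the values given above, was higher with LPS-IL-4 in all 3 mice (log2 fold change 0.51 ± 0.08 (SE), adjusted p = 0.00308). Acaca (ENSMUSG00000020532, chr11:84129672-84401651, plus strand), which makes the malonyl-CoA that Fasn uses, was at 193, 197 and 191 CPM with LPS-IL-4 and 138, 158 and 155 CPM with LPS-BAFF-TGFβ, again without overlap (log2 fold change 0.36 ± 0.09 (SE), adjusted p = 0.0237). Scd2 (ENSMUSG00000025203, chr19:44293674-44306864, plus strand) was at 235, 286 and 219.5 CPM with LPS-BAFF-TGFβ, below each LPS-IL-4 value (log2 fold change 0.40 ± 0.12 (SE), adjusted p = 0.0467). Elovl5 (ENSMUSG00000032349, chr9:77917364-77984519, plus strand) was at 96.3, 95.7 and 91.3 CPM with LPS-IL-4 and 60.2, 76.6 and 70.7 CPM with LPS-BAFF-TGFβ. The lowest of these was the deep library of control mouse 1 (log2 fold change 0.45 ± 0.11 (SE), adjusted p = 0.0231). Elovl6 went the other way from the rest, with LPS-IL-4 values of 21.2 to 23.9 CPM against 33.5 to 37.2 CPM with LPS-BAFF-TGFβ (log2 fold change -0.67 ± 0.11 (SE), adjusted p = 0.00395).

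Of the regulators, Insig1 (ENSMUSG00000045294, chr5:28071363-28078662, plus strand), itself a target of SREBPs, was at 145, 154 and 142 CPM with LPS-IL-4 and 102, 118 and 93.4 CPM with LPS-BAFF-TGFβ. Every LPS-IL-4 culture was above every LPS-BAFF-TGFβ culture (log2 fold change 0.49 ± 0.11 (SE), adjusted p = 0.0140). Scap was at 83.8, 61.1 and 65.0 CPM with LPS-BAFF-TGFβ, all below the LPS-IL-4 range of 91.5 to 105.7 CPM (log2 fold change 0.46 ± 0.13 (SE), adjusted p = 0.0399). Srebf1 and Srebf2 did not pass, with log2 fold changes of 0.16 and -0.18 and 95% intervals of -0.06 to 0.39 and -0.48 to 0.12. Among sterol enzymes the largest fitted value was that of Idi1 (0.75, 95% interval 0.00 to 1.51), and the other 17 lay between -0.26 (Mvk) and 0.25 (Msmo1). The LPS-BAFF-TGFβ library of control mouse 1 moved these counts. Without it, 12 members passed, but so did 31.8% of all genes (19.3% in the full comparison). Sqle, Lss and Fads2 were added as higher and Fads1 as lower with LPS-IL-4. Without both of that mouse's libraries and with the mouse as a block, 16 passed, with 36.1% of all genes. Of the 16, 5 were sterol enzymes (Mvd, Pmvk, Idi1, Sqle and Lss). Without control LPS-IL-4 mouse 1 or 2 or LPS-BAFF-TGFβ mouse 3, 3 members passed (10.5%, 11% and 13.2% of all genes). Fasn, Scd1 and Elovl6 passed in every alternative.

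In Pdap1-deficient mice, 2 of 33 members passed between stimulations (11.5% of all 14617 genes tested did), Scd1 as higher (5.89% of all genes) and Elovl6 as lower (5.57%) with LPS-IL-4. Groups did not overlap in 4 members higher and 2 lower (14.1% and 15.0% of all genes). Scd1 was at 499, 413 and 444 CPM with LPS-IL-4 and 313, 293 and 279.6 CPM with LPS-BAFF-TGFβ in mice 1, 2 and 3. The stimulations did not overlap (log2 fold change 0.61 ± 0.11 (SE), adjusted p = 0.00537). Elovl6 was at 15.6, 10.03 and 14.5 CPM with LPS-IL-4 and 27.4, 24.2 and 29.0 CPM with LPS-BAFF-TGFβ. It was at 49.5% of its LPS-BAFF-TGFβ level with LPS-IL-4, with the lowest value in mouse 2 in either stimulation (log2 fold change -1.01 ± 0.18 (SE), adjusted p = 0.00571). Ebp came next without passing (log2 fold change 0.43 ± 0.14 (SE), adjusted p = 0.0802). Fasn was higher with LPS-IL-4 in each of the 3 mice but with a smaller fitted difference that did not pass (log2 fold change 0.25 ± 0.12 (SE), adjusted p = 0.224).

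The calls in Pdap1-deficient mice depended on whether cultures were compared within a mouse. With the mouse as a block, 10 members passed (26.4% of all genes): Acaca, Fads2, Fasn, Ebp, Scap, Scd1, Insig1 and Idi1 were higher and Fads1 and Elovl6 lower with LPS-IL-4. Of these, Fasn had a blocked log2 fold change of 0.25 (adjusted p = 0.00826), Insig1 of 0.24 (adjusted p = 0.0336) and Fads1, a desaturase on the way to arachidonate, of -0.34 (adjusted p = 0.0255). Without both libraries of Pdap1-deficient mouse 2, 4 members passed without the block (16.5% of all genes) and 10 with it (25.1%). Without its LPS-IL-4 library alone 7 passed (15.2% of all genes), and without the LPS-BAFF-TGFβ library of mouse 3 only Elovl6 did (6.21%). The smaller number of members that passed in Pdap1-deficient than in control mice is not a tested difference, since the genotype by stimulation term named no member with or without the mice as blocks.

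**Figure D4:**
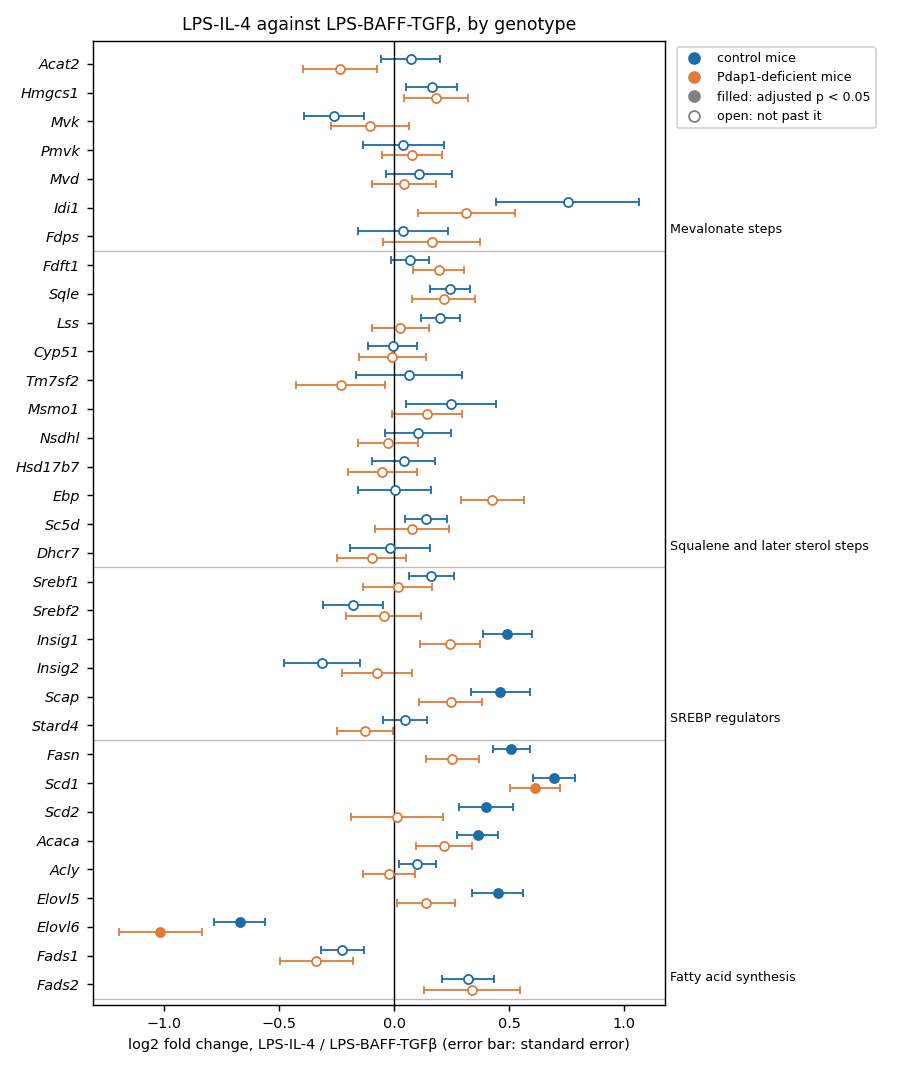
Log2 fold change between LPS-IL-4 and LPS-BAFF-TGFβ libraries (x axis, with its standard error) for the 33 members, in control mice in blue and in Pdap1-deficient mice in orange; filled symbols passed the test without the mouse as a block. In control mice 17 of the 18 sterol enzymes lie between -0.26 and 0.25 and Idi1 at 0.75 with a wide error, Scd1 is filled right of 0 and Elovl6 left of 0 in both genotypes, and the other 6 filled symbols are blue.

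A further 53 genes around these pathways, of which 49 to 51 were tested in each comparison, were taken from a list of isoprenoid branches, sterol uptake and export, SREBP processing, and precursor supply and esterification. With LPS-IL-4, 4 of 50 passed between genotypes, 3 higher and 1 lower in Pdap1-deficient libraries (2.79% and 2.12% of all genes). Me1, the malic enzyme that supplies NADPH, was at 0.906, 0.540 and 0.701 CPM in control and 3.66, 4.93 and 3.60 CPM in Pdap1-deficient libraries (log2 fold change 2.48 ± 0.31 (SE), adjusted p = 0.00275). Lrp8, a lipoprotein receptor, was at 24.7 to 28.8 CPM in control and 44.3, 55.8 and 49.4 CPM in Pdap1-deficient libraries (log2 fold change 0.86 ± 0.12 (SE), adjusted p = 0.00415). Vldlr, another receptor of the same family, had 1 count in each control library and was at 7.39, 1.76 and 7.08 CPM in Pdap1-deficient mice (adjusted p = 0.00649), too few counts for a fold change to be given. In all 3 genes each Pdap1-deficient library lay above each control library. Scarb1, which takes up cholesterol esters from high density lipoprotein, was the lower one, at 49.3, 56.4 and 57.6 CPM in control and 41.7, 35.5 and 34.8 CPM in Pdap1-deficient libraries (log2 fold change -0.55 ± 0.12 (SE), adjusted p = 0.0297). With LPS-BAFF-TGFβ, Vldlr alone passed, at 0.715, 1.58 and 0.731 CPM in control and 8.87, 7.23 and 8.09 CPM in Pdap1-deficient libraries (log2 fold change 3.11 ± 0.35 (SE), adjusted p = 0.00518).

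Between stimulations, 12 of 49 of these genes passed in control mice (9 higher and 3 lower with LPS-IL-4) and 7 of 51 in Pdap1-deficient mice (6 higher and 1 lower), beside 19.3% and 11.5% of all genes. With the mouse as a block 9 and 19 passed, beside 13.4% and 26.4% of all genes. Abca1, the exporter of cellular cholesterol, was at 2.88, 0.989 and 2.19 CPM with LPS-IL-4 and 39.4, 54.6 and 47.6 CPM with LPS-BAFF-TGFβ in control mice (log2 fold change -4.53 ± 0.32 (SE), adjusted p = 6.47e-05). In Pdap1-deficient mice Abca1 was at 1.40, 26.5 and 5.92 CPM and 48.2, 106 and 52.8 CPM, highest in mouse 2 in both stimulations, and did not pass. Elovl7, an elongase of long saturated chains, had at most 2 counts per library in control LPS-IL-4 cultures against 7.15 to 12.04 CPM with LPS-BAFF-TGFβ (adjusted p = 7.70e-05), and 0.156 to 0.423 CPM against 9.84 to 12.4 CPM in Pdap1-deficient mice (adjusted p = 2.00e-05). Scarb1 was higher with LPS-IL-4 in both genotypes, with log2 fold changes of 1.25 in control and 0.72 in Pdap1-deficient mice (adjusted p = 1.66e-04 and 0.00486). In Pdap1-deficient mice the acyltransferase Agpat3 (log2 fold change 0.61 ± 0.12 (SE), adjusted p = 0.00856) and Lrp8 (log2 fold change 0.81 ± 0.16 (SE), adjusted p = 0.00974) were also among the 4 with the smallest adjusted p, both higher with LPS-IL-4. The genotype by stimulation term named 0 of 51 of these genes in edgeR and in DESeq2 (4 at an unadjusted p under 0.05 in edgeR, beside 4.78% of all genes).

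Counts of some members share sequence with other genes. A processed pseudogene copies most of Fdps (Gm3571, 85.9% of a Fdps transcript at 98% identity or more, with 4275 counts against 1840 of Fdps) and of Idi1 (Gm13502, 87.5%, 11067 counts against 15664), and another covers a short Acaca transcript whole (Gm5182, 14790 counts against 26754). Acat3 shares 78.6% of an Acat2 transcript (777 counts against 11935), and Tcp1, with 132768 counts, shares 24.7% of it. Exons of Tm7sf2 and Vps51 overlap on the same strand, and those of Fdft1 and Ctsb, Cyp51 and Akap9, and Srebf1 and Rai1 on opposite strands. Transcripts on the other strand also overlap exons of Lss (4930483K19Rik, 188 counts against 15661) and of Scap (5830462I19Rik, 208 counts against 13317). The same holds for Hmgcs1 (Gm48342, 730 counts against 47120) and Elovl6 (Gm35986, 19 counts against 4532). How reads were divided between such genes, and whether strand was used in counting, is not given in the sources used here. The values of Fdps, Idi1, Acaca, Acat2, Tm7sf2, Fdft1, Cyp51, Srebf1, Lss, Scap, Hmgcs1 and Elovl6 are uncertain to that extent.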

How the data were processed

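RNA from 12 cultures was depleted of ribosomal RNA and sequenced. The table deposited by the authors holds raw read counts per gene with no normalization. Per the labels and the study's methods, reads were trimmed with Trim Galore 0.6.1, aligned to GRCm38 with STAR 2.6 and counted with HTSeq 0.9.1. The labels name the CH12 cell line and an mRNA kit, whereas the study's methods describe B cells taken from spleens and a kit for total RNA.

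Members and lists of other genes were chosen with earlier results of these data known. Of 55536 genes, 23840 had no count and 15794 were kept by filterByExpr over the 12 libraries. Differences were tested with edgeR 4.0.16 (robust quasi-likelihood test, TMM, R 4.3.3) on the libraries of each comparison, or on all 12 for the genotype by stimulation term, with Benjamini-Hochberg adjustment over all genes tested and a threshold of 0.05. The 95% intervals use the t distribution with the degrees of freedom of that test. As alternatives served DESeq2 1.42.0 (Wald test), its size factors in edgeR, no filter or at least 10 counts in every library, the mouse as a block, a shared fit, each library left out in turn, the deep library thinned to 8035069 counts, the removal of libraries that stood apart, and the log2 level of Xist as a term between genotypes. The last 2 kinds were chosen after seeing the data. An exact permutation test of 3 against 3 libraries cannot go below p = 0.1 (two-sided), so none was used. The fits were tested on simulated data.

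Each mouse gave a culture to each stimulation, so the mouse pairs the stimulations (the 6 mice were the blocks of the genotype by stimulation term). Deviations from the group mean of cultures of the same number correlated at -0.18, 0.34 and -0.02 in control and at 0.58, 0.62 and 0.29 in Pdap1-deficient mice. Cultures of different numbers correlated at -0.58 to 0.01 in Pdap1-deficient mice and at -0.41 to 0.37 in control mice. The highest of these joined control LPS-IL-4 mouse 3 with LPS-BAFF-TGFβ mouse 1, and LPS-IL-4 mouse 1 with LPS-BAFF-TGFβ mouse 3 gave 0.17. In control mice the values therefore do not set the same-number pairs apart, and whether equal numbers mark the same control mouse was not tested. Genotypes share no mouse. In each comparison up to 8 members past the threshold were named by smallest adjusted p, at least 1 from each list that had any, or the 3 with the smallest adjusted p where fewer than 3 passed, and up to 4 of the 53 other genes past it, of which 1 is not reported here. Members outside this rule were chosen after their values were seen. Promoters came from RefSeq (GRCm38.p6), near copies from blastn 2.17.0 and exons from GENCODE. Column sums, 4579793 to 69500640, set the precision: the lowest count of a member in any library was 30.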

Additional observations from a re-analysis of the deposited data

How the results depend on the processing

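No member past the threshold changed sign in any alternative. Smaller fitted differences did: Idi1 with LPS-BAFF-TGFβ ranged from -0.38 to 0.20, Mvk with LPS-IL-4 from -0.16 to 0.04, and the median member between stimulations in Pdap1-deficient mice from -0.02 to 0.13. With LPS-IL-4 the 7 members between genotypes became 0 at an adjusted p under 0.01, 0 with the Xist level as a term and 0 to 12 with 1 library left out. DESeq2 called 9, its size factors in edgeR 7, no filter 10 and the shared fit 7. Comparing mice by number as a replicate block, although genotypes share no mouse, gave 0 members with LPS-BAFF-TGFβ and 6 in the LPS-IL-4 cultures. The 6 mice as a replicate block gave 0 for the genotype by stimulation term. Between stimulations in control mice, the 8 members became 4 with the block, 16 with the block and without both libraries of control mouse 1, 3 at an adjusted p under 0.01, and 3 to 12 with 1 library left out. In Pdap1-deficient mice, the 2 members became 10 with the block, 4 without both libraries of mouse 2, 10 without them and with the block, and 1 to 7 with 1 library left out. Between genotypes with LPS-BAFF-TGFβ and for the genotype by stimulation term, 0 members passed in every alternative run. The share of all genes that passed moved as well. With 1 library left out it was 0.44% to 11.4% between genotypes with LPS-IL-4. Between stimulations it was 10.5% to 31.8% in control mice and 5.85% to 15.2% in Pdap1-deficient mice. The cause of these changes was not tested. In comparisons with LPS-BAFF-TGFβ, thinning the deep library changed no count of members. Between stimulations in control mice, 7 of the 8 stayed, while Scd2 no longer passed and Fads2 did. Whether deeper libraries would change the counts was not tested.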

Other observations

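The near copies that may share reads with members were tested as genes of their own with the same edgeR fits. Gm3571, the pseudogene that resembles Fdps, had a log2 fold change of -0.67 ± 0.16 (SE) between genotypes with LPS-IL-4 (adjusted p = 0.0455), beside -0.33 ± 0.17 for Fdps (adjusted p = 0.271). Between stimulations in control mice, Gm5182, which resembles Acaca, was at 0.53 ± 0.14 (adjusted p = 0.0322) beside 0.36 ± 0.09 for Acaca (adjusted p = 0.0237). In that comparison Acat3, which resembles Acat2, was at 0.78 ± 0.20 (adjusted p = 0.0260) beside 0.07 ± 0.13 for Acat2 (adjusted p = 0.745), and Gm13502, which resembles Idi1, at 0.46 ± 0.17 (adjusted p = 0.0912) beside 0.75 ± 0.31 for Idi1 (adjusted p = 0.159). These values were chosen after they were seen.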
